A study of Homo sapiens with 4 samples.

Results

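The promoters described here belong to 42 genes of DNA damage signalling, the p53 checkpoint, homologous recombination, end joining, excision repair and the Fanconi anaemia pathway. They were chosen by gene name, matched through their Entrez identifiers, and all 42 were found among the 28775 promoters of the count table. ATAC-seq reads out open chromatin by letting the Tn5 transposase cut DNA and attach sequencing adapters wherever it is exposed, so that a promoter's count is a number of sequenced fragments. HEK293T, the cell line used, derives from human embryonic kidney and makes SV40 large T antigen, a viral protein that binds and holds p53. All 4 libraries came from HEK293T cells with wild-type MORC2. The control group (2 libraries) was given lipofectamine, and the cells of the overexpression group (2 libraries) received, by transfection, a plasmid for MORC2 fused to a green fluorescent protein. Nothing in the labels tells whether control cells also got an empty plasmid, or whether the libraries of a group came from separate cultures. The p-values therefore measure only the spread between these libraries. That spread was pooled over promoters of like abundance and not taken from each promoter alone. In bulk libraries, a promoter that is closed in some of the cells and one that is less open in every cell cannot be told apart.

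DNA damage is sensed by a small set of protein kinases and complexes. The MRN complex (MRE11, RAD50, NBN) binds broken ends and recruits the kinase ATM, whereas ATR responds to single-stranded DNA at stalled forks, and both act through the checkpoint kinases and p53. Breaks in both strands are repaired by end joining or by homologous recombination, nicks in 1 strand by PARP1 and its partners, and bulky or mismatched bases by excision. MORC2, the protein raised in these cells, is an ATPase that compacts DNA, and it is known to be phosphorylated by the kinase PAK1 after damage and to be modified by PARP1 at damaged sites. The question put to the data was whether the promoters of the genes of this response were more or less open when MORC2 was overexpressed.

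The DNA in front of 3 of these genes is shown first. XPC had the smallest p-value of the 42 promoters, CDKN1A had the lowest accessibility, and PARP1 encodes the enzyme that links MORC2 to damage. The RefSeq entry of CDKN1A lies 1000 bp or more from the outer start of the gene. Its sequence may therefore not be the DNA whose accessibility was counted. The 250 bases upstream of each start are given on the strand of the gene, 5′ to 3′, from RefSeq (GRCh38.p14). Capitals mark GGGCGG (the GC box bound by SP factors) and TTCCCGC (an E2F-type motif), searched on both strands, and neighbouring matches may overlap. They lie at chr3:14178602-14178851 (XPC, minus strand), chr6:36678464-36678713 (CDKN1A, plus strand) and chr1:226408094-226408343 (PARP1, minus strand).
XPC: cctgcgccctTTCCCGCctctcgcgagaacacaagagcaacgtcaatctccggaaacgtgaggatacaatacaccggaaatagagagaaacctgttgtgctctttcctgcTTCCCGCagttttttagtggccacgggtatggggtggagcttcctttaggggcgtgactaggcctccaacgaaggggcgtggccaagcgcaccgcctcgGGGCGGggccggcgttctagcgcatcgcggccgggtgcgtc
CDKN1A: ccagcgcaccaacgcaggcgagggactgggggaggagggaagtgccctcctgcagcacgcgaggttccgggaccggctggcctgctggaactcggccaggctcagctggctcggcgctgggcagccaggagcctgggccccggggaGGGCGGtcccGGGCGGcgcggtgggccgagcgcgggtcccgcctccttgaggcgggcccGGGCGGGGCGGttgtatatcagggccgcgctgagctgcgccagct
PARP1: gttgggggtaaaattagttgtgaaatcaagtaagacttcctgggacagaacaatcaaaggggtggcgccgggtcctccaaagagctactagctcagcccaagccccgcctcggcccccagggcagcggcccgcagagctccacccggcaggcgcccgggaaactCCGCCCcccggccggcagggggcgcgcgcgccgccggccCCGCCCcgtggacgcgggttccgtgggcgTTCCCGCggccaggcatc
XPC held 1 GGGCGG and 2 TTCCCGC matches, CDKN1A held 4 GGGCGG and 0 TTCCCGC, and PARP1 held 2 GGGCGG, which read CCGCCC on the strand shown, and 1 TTCCCGC. The G and C share was 61.2% in XPC, 76.4% in CDKN1A and 70.4% in PARP1. A match to letters is a description and not a bound site.

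RefSeq promoter windows of 300 bases (250 before and 50 after a start) were matched for 37 of the 42 genes, with no entry for GADD45A, NBN, PRKDC, XRCC5 and FANCI. Observed over expected CpG had a median of 0.877 in the 37 windows, against 0.768 in the 17002 tested promoters with a window, and ranged from 0.245 at ERCC1 to 1.06 at XPC. On either strand, GGGCGG was present in 29 of 37 (78.4%, against 59.5% of the 17002), CCAAT (the NF-Y motif) in 18 (48.6%, against 35.3%) and CGGAAG (an ETS-type motif) in 15 (40.5%, against 25.9%). The E2F-type motifs TTCCCGC and TTGGCGC were in 7 (18.9%, against 8.63%) and 4 (10.8%, against 4.06%) of them, and CATGCGC, an NRF1-type motif, was in 3 (8.11%, against 5.95%). TATAA was found in 2 windows, H2AX and PARP2 (5.41%, against 14.3%). These shares are descriptive, with no test. The start used for the authors' window is not given for any gene. For CDKN1A, MRE11, CHEK1 and RBBP8, the RefSeq entry lies 1000 bp or more from the outer start of the gene.

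Total counts per library ranged from 3734519 to 10255182, of which nuclear promoters held 4928862 and 3675088 in control and 1826951 and 979895 in overexpression (here and below, replicate 1 and then replicate 2). Mitochondrial promoters took 51.9% and 55.6% of counts in control and 74.7% and 73.8% in overexpression. The promoters of GAPDH, ACTB, RPLP0 and PCNA, open in cycling cells, had control means of 26.0 to 56.1 CPM (the count relative to the TMM-scaled library total). Of the kidney line markers, VIM (51.4 CPM) and LHX1 (12.7 CPM) were open, NEFM was lower (6.99 CPM) and PAX2 stood at 3.59 CPM. ALB, PTPRC and CD3E, of other lineages, had at most 10 counts in any library, while INS and MYH6 stood at 2.96 and 2.83 CPM.

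The repair promoters had counts in every library, with a minimum of 14. All 42 passed the filter on low counts, and in the control libraries their median counts were 340 and 264.5, compared with 120.5 and 61 in the overexpression libraries. Together they held 0.301% and 0.317% of nuclear counts in control, and 0.294% and 0.289% in overexpression. If all windows are taken as 2 kb, CPM can be compared between genes, and the mean over the 4 libraries ranged from 5.63 CPM at CDKN1A to 76.4 CPM at GADD45A. The median of the 42 was 24.0 CPM against 12.1 CPM for the 23407 promoters tested. With all tested promoters cut into 4 bins of equal size by abundance, 0 repair promoters were in bin 1 (lowest), 5 in bin 2, 13 in bin 3 and 24 in bin 4.

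**Figure D1:**
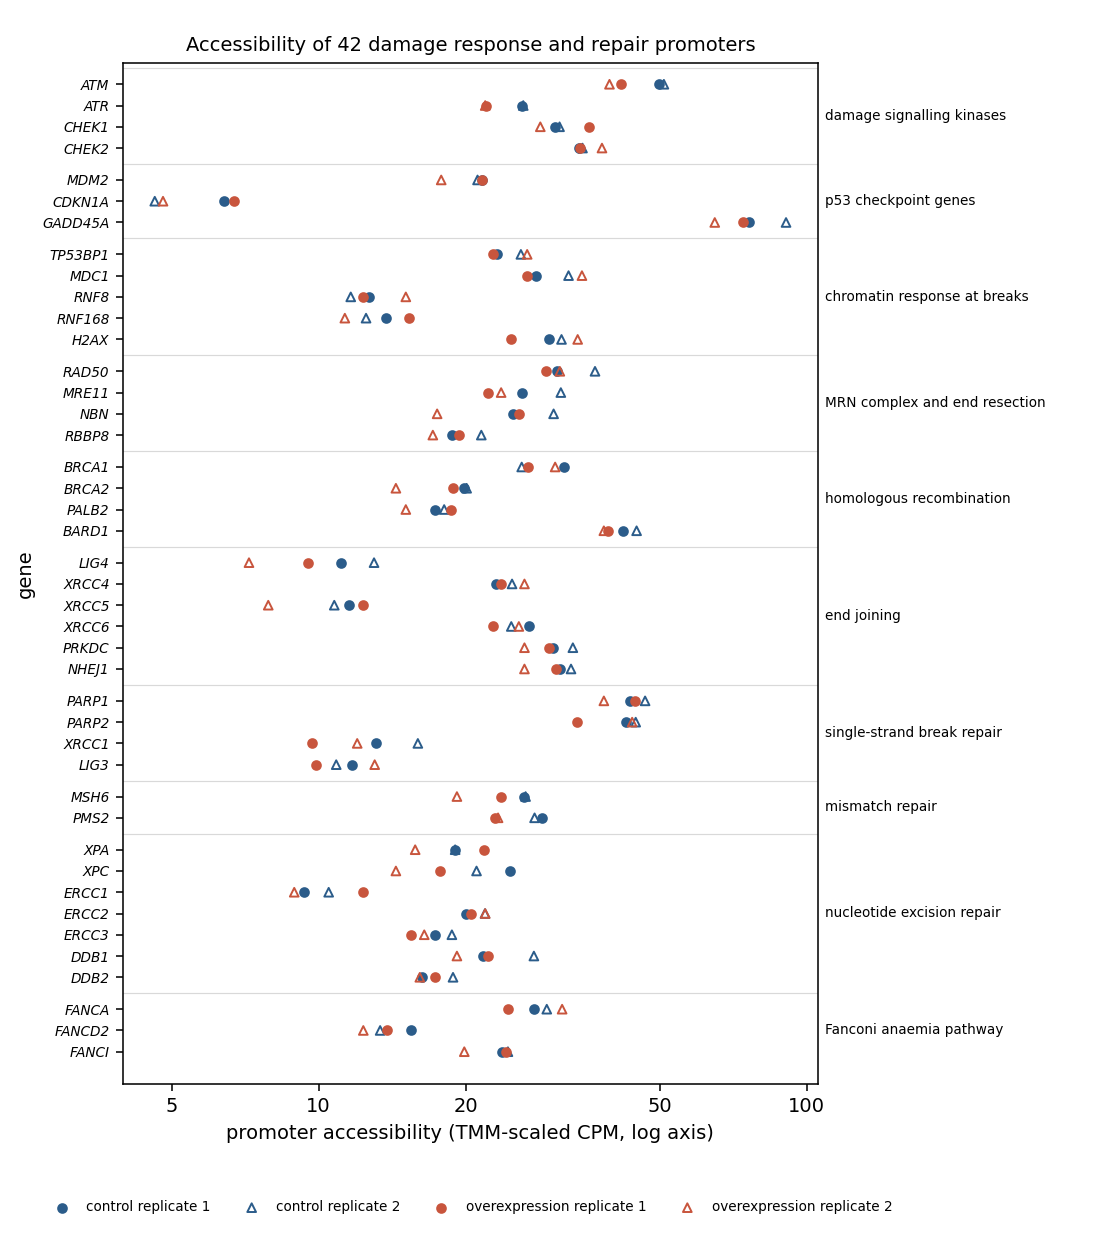
Accessibility of the 42 promoters in each library, as TMM-scaled CPM on a log axis, grouped by the role of the gene. Filled and open blue marks are control replicates 1 and 2 and red marks are overexpression replicates 1 and 2. GADD45A is highest and CDKN1A lowest, and at 14 genes both red marks lie below both blue marks.

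Of the 42 promoters, XPC alone fell past an adjusted p of 0.05 (2.38%), and 0 rose. The background is close to this, because 2.47% of the 23407 promoters were called in either direction, 1.3% lower and 1.16% higher. DESeq2 gave an adjusted p to only 6 of the 42 and called 0 of them, against 0.461% of all promoters, so its result does not cover the rest. With limma-voom, 0 of the 42 were called, against 3.07% of all promoters. At an unadjusted p under 0.05 by the same edgeR quasi-likelihood test, 8 of the 42 were lower (19.0%, against 8.57% of all promoters) and 0 were higher (against 8.66%). The 8 were XPC, ATM, GADD45A, XRCC1, MRE11, LIG4, PMS2 and NBN. Control libraries were both higher than the overexpression libraries at 14 promoters (33.3%, against 24.9% of all) and both lower at 0 (against 24.8%). The log2 fold change (overexpression over control) was below 0 at 33 of the 42 (78.6%, against 48.6%) and above 0 at 9. Its median was −0.11, with a range from −0.48 to 0.17, and the median of all promoters tested was 0.0099.

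These counts moved with abundance across the whole table. From bin 1 to bin 4 of abundance, log2 fold changes had medians of 0.39, 0.13, −0.0535 and −0.13, and the share below 0 was 21.9%, 32.9%, 60.6% and 79.2%. Among the repair promoters of bins 2, 3 and 4, the medians were −0.039, −0.080 and −0.15. In bin 4, 21 of 24 repair promoters were below 0 (87.5%, against 79.2%), 5 had an unadjusted p under 0.05 on the lower side (20.8%, against 23.2%) and 9 had groups that did not overlap with overexpression lower (37.5%, against 50.4%). In bin 3, the last 2 numbers were 2 of 13 (15.4%, against 8.41%) and 4 of 13 (30.8%, against 29.9%), and in bin 2 they were 1 of 5 (20.0%, against 2.05%) and 1 of 5 (20.0%, against 11.9%). These 2 shares were thus below those of all promoters in bin 4. In bins 2 and 3 each rested on 1 to 4 promoters, and the bin 3 share without overlap was near that of all promoters. The part of abundance or of the mitochondrial share in the differences was not tested. Scaling also changed the balance, since 33 of the 42 were below 0 with TMM but 24 with upper quartile factors, 27 with nuclear totals and 25 after a loess fit on abundance, which left a median of −0.024.

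**Figure D2:**
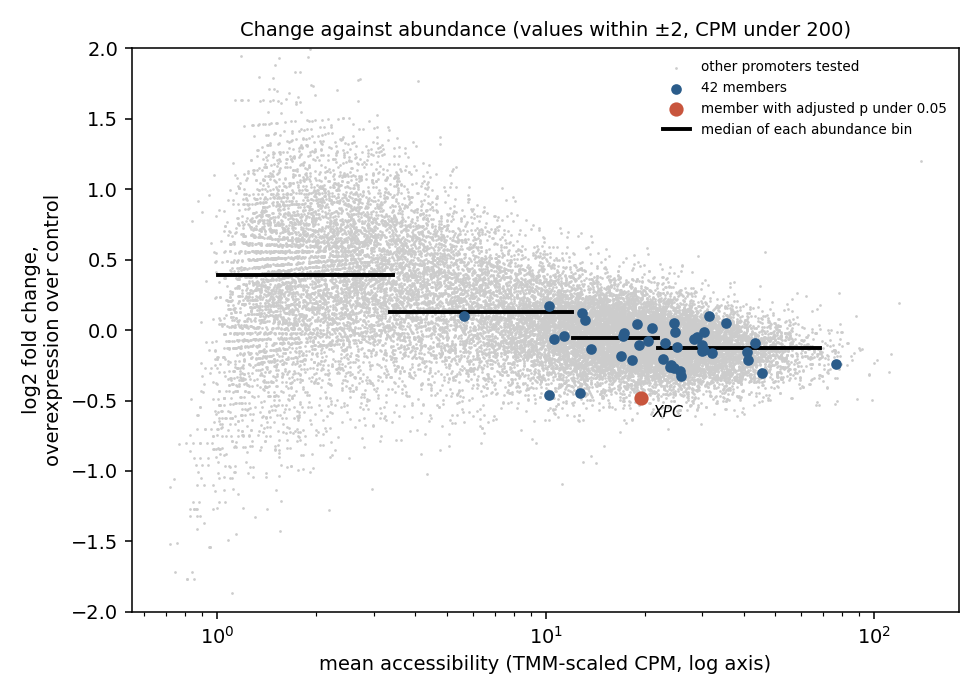
Log2 fold change of each promoter against its mean accessibility (TMM-scaled CPM, log axis), with the 42 repair promoters in blue, XPC in red and other promoters in grey. Black bars are the medians of the 4 abundance bins, which go from 0.39 to −0.13, and most of the blue points lie around the bars at higher abundance.

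The differences were of the size of the spread between libraries. Across the 42 promoters, the SD of the log2 ratio of replicate 2 to replicate 1 was 0.170 in control and 0.297 in overexpression, and the SD of the log2 fold changes was 0.156. The size of the log2 fold change exceeded both replicate ratios at 9 of the 42 (21.4%, against 33.9% of 23375 promoters with a count in every library), namely ATM, ATR, MRE11, BARD1, LIG4, XRCC1, PMS2, XPC and ERCC3. The 95% interval of every one of the 42 lay within a 2-fold change in either direction, as did 74.3% of all promoters. This share moved with abundance, from 836 of 5852 promoters in bin 1 to 4902 of 5852 in bin 2. In bins 3 and 4, which hold most of the 42, it was 5843 of 5851 and 5813 of 5852. Among the 42, the lowest bound was −0.86 on the log2 scale, at LIG4, and the highest was 0.60, at CDKN1A. With 2 libraries a group, the smallest p of an exact permutation test is 0.333, so that no single promoter could pass one.

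**Figure D3:**
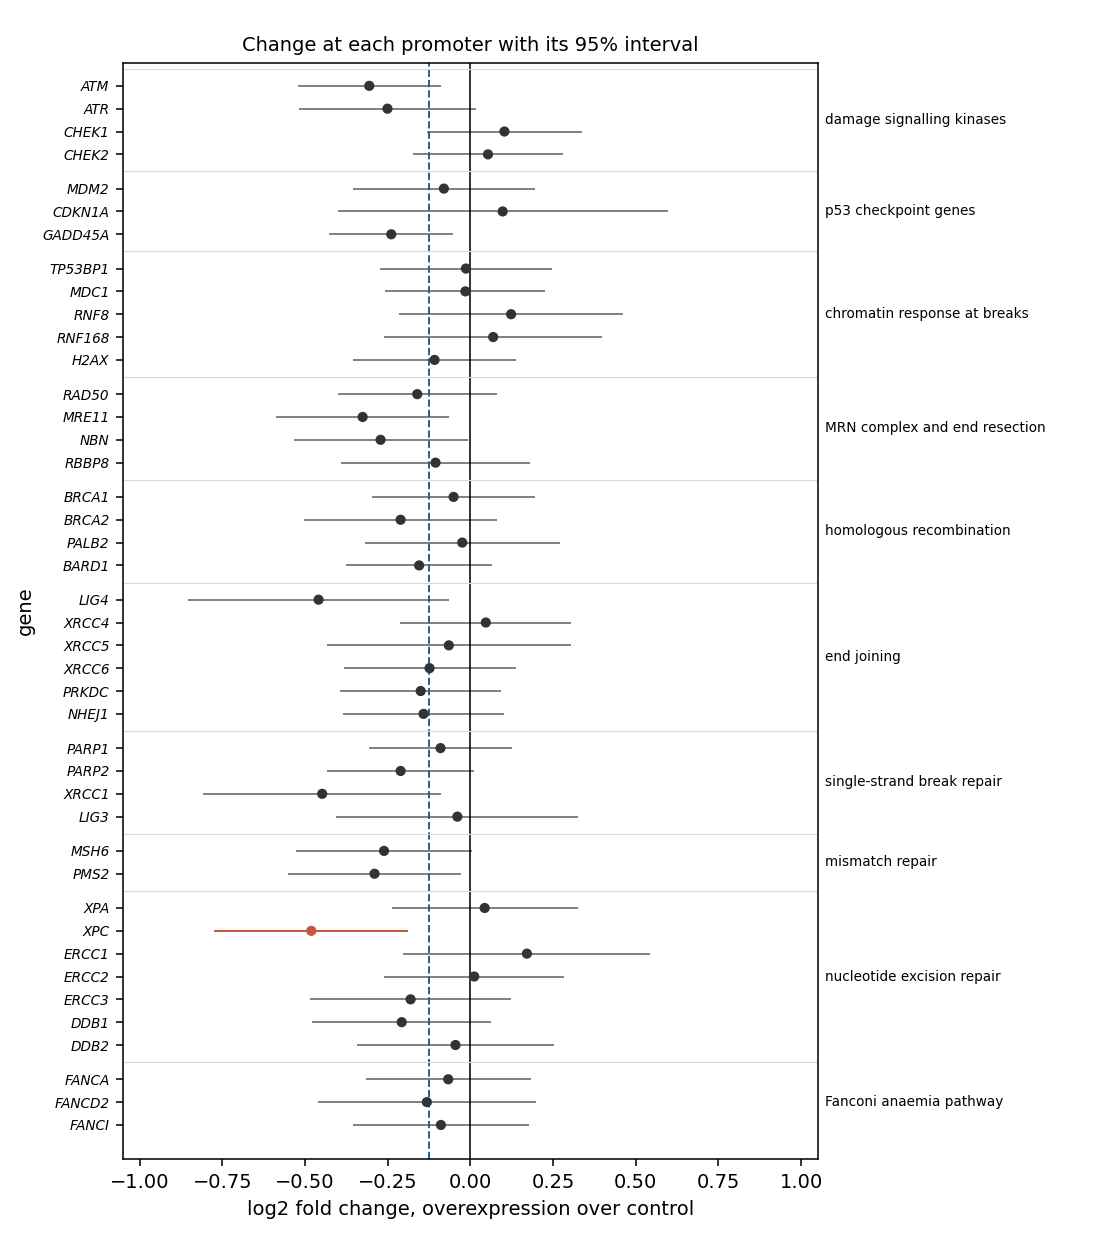
Log2 fold change (overexpression over control) of each of the 42 promoters with its 95% interval from the edgeR fit, grouped by role. XPC, in red, is the only promoter past the adjusted threshold, the solid line is no change and the dashed line is the median of all promoters in the highest abundance bin (−0.13).

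Among the damage signalling kinases, ATM, the kinase that responds to breaks in both strands, had 49.9 and 50.9 CPM in control and 41.6 and 39.4 CPM in overexpression. Both overexpression libraries were lower, by more than either group's spread. Its log2 fold change was −0.31 (SE 0.110, n = 2 a group), with an adjusted p of 0.102, which did not pass, and it was −0.15 after the loess fit. ATR, the kinase of replication stress, had 26.1 and 26.2 CPM in control and 22.0 and 21.9 CPM in overexpression, and its log2 fold change was −0.25 (SE 0.136, adjusted p of 0.318). CHEK1, the checkpoint kinase downstream of ATR, had 30.4 and 31.1 CPM in control and 35.8 and 28.4 CPM in overexpression. The overexpression libraries lay on either side of control, and the log2 fold change was 0.10 (SE 0.120, adjusted p of 0.704). CHEK2, which acts downstream of ATM, had a log2 fold change of 0.053.

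Of the p53 checkpoint genes, GADD45A, which encodes a stress-induced growth arrest protein, had the most open promoter of the 42. It had 76.1 and 90.6 CPM in control and 74.0 and 64.8 CPM in overexpression. The groups did not overlap, but control replicate 1 and overexpression replicate 1 were close, and the log2 fold change was −0.24 (SE 0.0957, adjusted p of 0.150). It was −0.043 after the loess fit, and −0.12 without control replicate 2. CDKN1A encodes the cell cycle inhibitor p21, the classical p53 target. The window counted for it had 6.41 and 4.61 CPM in control and 6.71 and 4.80 CPM in overexpression, from counts of 90, 48, 36 and 14. Which annotated start of CDKN1A that window used was not established, so these low values may not be those of its RefSeq promoter entry. Replicate 1 was the higher library in both groups, and the log2 fold change of 0.098 (SE 0.254, 95% interval −0.40 to 0.60, adjusted p of 0.882) was −0.096 after the loess fit. MDM2, the ubiquitin ligase that degrades p53, had 21.6 and 21.2 CPM in control and 21.6 and 17.8 CPM in overexpression. Only overexpression replicate 2 stood apart, and the log2 fold change was −0.080 (SE 0.141, adjusted p of 0.814), or 0.000163 with upper quartile factors.

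Among the main set of repair promoters, those of the chromatin response at breaks had the median log2 fold change nearest to 0 of all roles (−0.014 over 5). This did not hold in the longer list of genes described below. There the 12 genes of the chromatin response had a median of −0.11, with 8 below 0 and 4 above. Of these 12, 3 were lower at an unadjusted p under 0.05 by edgeR. The role nearest to 0 in that list was end joining (0.028 over 5). H2AX, the histone variant phosphorylated around breaks, had 29.6 and 31.4 CPM in control and 24.8 and 33.9 CPM in overexpression. The overexpression libraries lay on either side of the control pair, and the log2 fold change was −0.11 (SE 0.125, adjusted p of 0.700), or 0.014 after the loess fit. RNF8, a ubiquitin ligase recruited by MDC1, had 12.7 and 11.6 CPM in control and 12.3 and 15.1 CPM in overexpression, and the log2 fold change was 0.12 (SE 0.173, adjusted p of 0.763), from 0.0025 to 0.29 when 1 library was left out. RNF168, the ligase that acts after RNF8, had a log2 fold change of 0.069, while MDC1, the scaffold that reads phosphorylated H2AX, and TP53BP1, which favours end joining, had values of −0.015 and −0.014.

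The 4 promoters of the MRN complex and of end resection were all below 0, with a median log2 fold change of −0.22. So were all members in homologous recombination, repair of nicks, mismatch repair and the Fanconi anaemia pathway. Of all promoters, 79.2% in bin 4 and 60.6% in bin 3 were below 0. MRE11, the nuclease, had 26.1 and 31.3 CPM in control and 22.2 and 23.6 CPM in overexpression. The groups did not overlap, and the log2 fold change was −0.33 (SE 0.134, adjusted p of 0.162), or −0.20 without control replicate 2. NBN, the subunit that recruits ATM, had 25.0 and 30.3 CPM in control and 25.7 and 17.5 CPM in overexpression. Here overexpression replicate 1 lay within the control range, so the groups overlapped, and overexpression replicate 2 was the lowest of the 4. The log2 fold change was −0.27 (SE 0.134, adjusted p of 0.263), but −0.66 without overexpression replicate 1 and −0.097 without overexpression replicate 2. RAD50, the ATPase that tethers ends, and RBBP8, which encodes the resection factor CtIP, had log2 fold changes of −0.16 and −0.11.

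In homologous recombination, BRCA1, a ubiquitin ligase that promotes resection and recombination, had 31.8 and 26.1 CPM in control and 26.8 and 30.5 CPM in overexpression. The overexpression values lay within the control range, and the log2 fold change was −0.051 (SE 0.126, adjusted p of 0.875). BRCA2, a mediator of recombination, had a log2 fold change of −0.21, BARD1, the partner of BRCA1, −0.15, and PALB2, which joins BRCA1 to BRCA2, −0.025. The groups of BRCA2 and BARD1 did not overlap, with overexpression lower. So it was at 29.9% of all promoters in bin 3, which holds BRCA2, and 50.4% in bin 4, which holds BARD1. Of these 4 promoters, 0 had an unadjusted p under 0.05 by edgeR.

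Among the 6 end joining promoters, LIG4, the ligase of the pathway, was lowest. It had 11.1 and 13.0 CPM in control and 9.51 and 7.20 CPM in overexpression, with 21 counts in overexpression replicate 2. The groups did not overlap, and the log2 fold change was −0.46 (SE 0.202, 95% interval −0.86 to −0.063, adjusted p of 0.187), or −0.74 without overexpression replicate 1. PRKDC, the catalytic subunit of the DNA-dependent kinase, and NHEJ1, the ligation factor XLF, also had groups that did not overlap. Their log2 fold changes were −0.15 and −0.14. Both lie in bin 4, where 50.4% of all promoters were lower without overlap. XRCC5 and XRCC6, which encode the Ku subunits that bind ends, had −0.065 and −0.12, and XRCC4, the scaffold of LIG4, had 0.047.

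For repair of nicks, PARP1, the enzyme that builds poly(ADP-ribose) on proteins at breaks, had 43.5 and 46.6 CPM in control and 44.6 and 38.4 CPM in overexpression. Overexpression replicate 1 lay between the control libraries and replicate 2 below them, and the log2 fold change was −0.090 (SE 0.110, 95% interval −0.31 to 0.13, adjusted p of 0.715), or 0.065 after the loess fit. XRCC1, the scaffold that PARP1 recruits, had 13.1 and 16.0 CPM in control and 9.69 and 12.0 CPM in overexpression. The groups did not overlap, and the log2 fold change was −0.45 (SE 0.183, adjusted p of 0.152), or −0.27 without overexpression replicate 1. PARP2, related to PARP1, had a log2 fold change of −0.21 with groups that overlapped, and LIG3, the ligase bound to XRCC1, had −0.039.

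Both mismatch repair promoters had groups that did not overlap, as did 50.4% of all promoters of bin 4, where both lie, with overexpression lower. PMS2, a subunit of the MutL complex, had 28.6 and 27.7 CPM in control and 22.9 and 23.3 CPM in overexpression, and each group agreed within 1 CPM. Its log2 fold change was −0.29 (SE 0.133, adjusted p of 0.222), or −0.18 after the loess fit. MSH6, which recognises mismatched bases, had 26.3 and 26.5 CPM in control and 23.7 and 19.2 CPM in overexpression, and its log2 fold change was −0.26 (SE 0.136, adjusted p of 0.293).

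Nucleotide excision repair held the promoter that fell. XPC, which recognises the distorted helix and starts global genome repair, had counts of 346 and 219 in control and 95 and 42 in overexpression. On the CPM scale these were 24.7 and 21.1 in control, a mean of 22.9 ± 2.54 (SD, n = 2), and 17.7 and 14.4 in overexpression, a mean of 16.1 ± 2.35 (SD, n = 2). Both overexpression libraries were below both control libraries. The log2 fold change was −0.48 (SE 0.150, 95% interval −0.77 to −0.19), which is a fall of 28.4%, with an adjusted p of 0.0447 by the edgeR quasi-likelihood test. The call lay close to the threshold and was lost without control replicate 1 (adjusted p of 0.362), without overexpression replicate 1 (0.118), without overexpression replicate 2 (0.338), and under upper quartile, nuclear total and loess scaling (0.112, 0.0903 and 0.256). The log2 fold change was below 0 in every setting tried, from −0.69 to −0.35.

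The other 6 excision repair promoters did not pass the test. ERCC1, a subunit of the nuclease that cuts 5′ of the lesion, had 9.33 and 10.5 CPM in control and 12.3 and 8.91 CPM in overexpression. The overexpression libraries lay on either side of control, and its log2 fold change of 0.17 (SE 0.191, adjusted p of 0.691) was the highest of the 42. XPA, which verifies the damage, and ERCC2, a helicase of TFIIH, had 0.043 and 0.012, and ERCC3, the other helicase of TFIIH, had −0.18. The damage-binding subunits DDB1 and DDB2 had −0.21 and −0.045. In the Fanconi anaemia pathway, which removes crosslinks between strands, FANCA, FANCD2 and FANCI had log2 fold changes of −0.067, −0.13 and −0.089, and 0 of the 3 had an unadjusted p under 0.05 by edgeR.

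Some of these genes share their promoter with a neighbour. Only the 37 genes with a RefSeq promoter entry could be searched, so GADD45A, NBN, PRKDC, XRCC5 and FANCI were not checked. Of the 37, 16 had a divergent gene on the other strand whose start was under 2000 bp away. Windows around such a pair of starts overlap and count many of the same fragments. The share of all genes with such a neighbour was not counted. The counts of TP53BP1 and MAP1A were identical in all libraries, and XPC and LSM3, which encodes a subunit of an RNA-binding ring in splicing and decay, differed by 1 count in 1 library. At LSM3 the control counts were 346 and 220 and those of overexpression 95 and 42, giving a log2 fold change of −0.48 (SE 0.150) and an adjusted p of 0.0435. The fall at XPC can therefore not be told apart from one at LSM3, and the pair is 1 measurement. ATM shared its counts with NPAT, a histone gene activator, in the same way (698, 529, 224 and 115, against 700, 530, 223 and 115 at ATM). MRE11, LIG4 and PMS2, also lower at an unadjusted p under 0.05 by edgeR, had counts close to those of a neighbour. MRE11 had 367, 326, 119 and 69 (ANKRD49 had 366, 326, 119 and 69). LIG4 had 156, 135, 51 and 21 (ABHD13 had 155, 135, 51 and 21). PMS2 had 402, 288, 123 and 68 (AIMP2 had 412, 297, 125 and 67). At these pairs, too, the change cannot be told apart between the genes. Of the 16 neighbours, LSM3 was the 1 neighbour past the adjusted threshold (2.47% of all promoters were), and 15 had a log2 fold change of the same sign as the repair gene.

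The exception was CDKN1A and DINOL, a noncoding RNA gene at the same locus. The start used for the counted window of CDKN1A was not established, so the windows of this pair may not overlap. DINOL had counts of 261 and 221 (control) and 98 and 53 (overexpression), which is more than CDKN1A in every library, and its log2 fold change was −0.12 (SE 0.146, adjusted p of 0.725). For BRCA1, the divergent neighbour found was NBR1. The BRCA1 window held 447, 271, 144 and 89 counts, close to those of NBR1 (448, 271, 145 and 89). NBR2, which was not among the neighbours found under 2000 bp away, had 236, 158, 80 and 50. Which annotated start of BRCA1 the counted window used is not given.

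**Figure D4:**
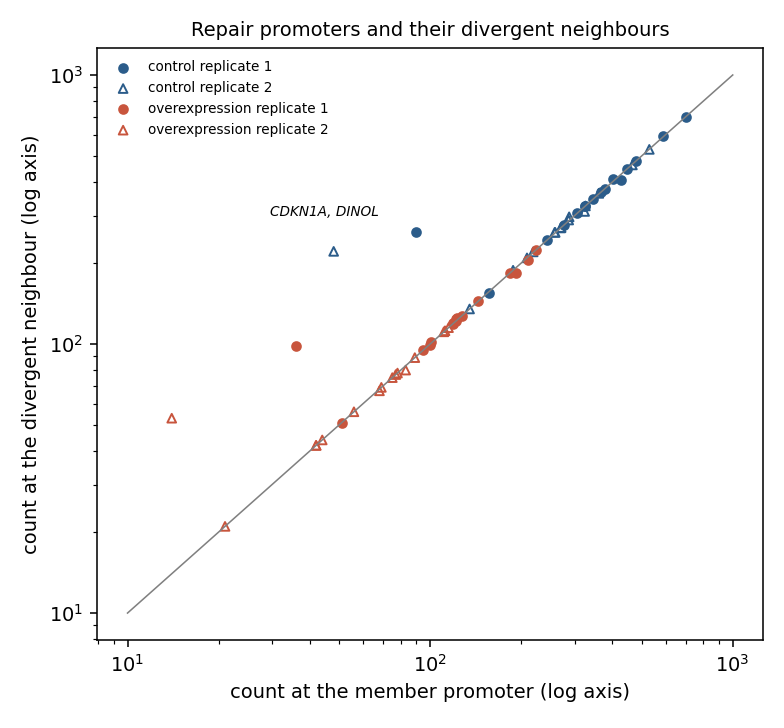
Counts of 16 repair promoters and of the divergent neighbour of each, on log axes, with 1 mark a library (blue control, red overexpression, filled replicate 1, open replicate 2) and a line at equal counts. Of the pairs, 15 lie on or near the line, and CDKN1A with DINOL lies above it.

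A longer list of 118 other genes of the same pathways was examined by the same fit, and 117 were tested, MLH3 being the exception. Of these, 3 fell past the adjusted threshold and 0 rose (2.56% lower, against 1.3% of all promoters). The share of all promoters called lower was 0.684% in bin 3, which holds ABRAXAS1. It was 4.44% in bin 4, which holds TDP1 and POLM. ABRAXAS1, the scaffold of the BRCA1-A complex, had 22.4 and 22.4 CPM in control and 13.2 and 17.8 CPM in overexpression, and its log2 fold change was −0.59 (SE 0.155, adjusted p of 0.0124). TDP1, which removes topoisomerase adducts from DNA ends, had 50.6 and 46.4 CPM in control and 38.4 and 36.7 CPM in overexpression, and its log2 fold change was −0.37 (SE 0.113, adjusted p of 0.0457). POLM, a polymerase of end joining, had 37.5 and 41.2 CPM in control and 31.3 and 27.8 CPM in overexpression, and its log2 fold change was −0.39 (SE 0.121, adjusted p of 0.0494). In all 3 the groups did not overlap, with overexpression lower, as at 29.9% of all promoters in bin 3 and 50.4% in bin 4. The 3 were picked by p-values from the same libraries, so this adds no separate evidence. Each of the 3 lost its call after the loess fit, and TDP1 and POLM did so also under upper quartile and nuclear total scaling and without any 1 of the 4 libraries (adjusted p of 0.0795 to 0.302 for TDP1 and 0.0922 to 0.339 for POLM). Without overexpression replicate 1, the log2 fold change of ABRAXAS1 was −0.34. ABRAXAS1 lost its call without control replicate 1 (0.0861), control replicate 2 (0.0561) or overexpression replicate 1 (0.481).

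At an unadjusted p under 0.05 by edgeR, 26 of the 117 were lower (22.2%, against 8.57%) and 1 was higher, the glycosylase gene NEIL1, named here after its value was seen, whose log2 fold change was 0.31 (SE 0.150, adjusted p of 0.261). RAD23B, a binding partner of the XPC protein and likewise named after its value was seen, had 43.5 and 44.4 CPM in control and 33.6 and 35.0 CPM in overexpression, and its log2 fold change was −0.37 (SE 0.116, adjusted p of 0.0551). The median log2 fold change of the longer list was −0.13, at a median abundance of 21.9 CPM, and 86 of 117 were below 0 (73.5%). By pathway, the 18 excision repair genes had 7 on the lower side at an unadjusted p under 0.05, the 14 recombination genes had 5, the 15 Fanconi genes had 4 and the 7 resection genes had 0. Of the 22 genes of nick and base repair, 3 were on the lower side, as were 3 of 12 of the chromatin response, 2 of 12 of the p53 checkpoint, 1 of 11 of damage signalling, 1 of 5 of end joining and 0 of 1 of mismatch repair. These counts stand beside 8.57% of all promoters, 8.41% in bin 3 and 23.2% in bin 4. The window of the MORC2 promoter, which does not check expression from the plasmid, had counts of 257 and 162 (control) and 87 and 42 (overexpression), and its log2 fold change was −0.14 (SE 0.156, adjusted p of 0.695).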

How the data were processed

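ATAC-seq libraries of HEK293T cells were compared between control (2) and MORC2 overexpression (2), with groups and replicate numbers taken from the labels. According to the study's methods, the authors trimmed the reads, used bowtie2 to align them to CHM13, a gapless human assembly, retained proper pairs that mapped with high quality, removed duplicates with Picard and counted fragments by their midpoint in small windows tiling the genome, whose test results were then summarised to promoters, defined as 2 kb around transcription start sites. How the promoter count table was made is not given in the sources used here. The submitters' processing notes also name deepTools and MACS2. The deposited table holds raw counts per promoter, 1 row per Entrez identifier, from the authors. That each row counts the whole 2 kb by midpoint is an assumption. Overlapping windows count the same fragment more than once. The deposited peak lists were not used here, because gene positions on CHM13 were not at hand, so the planned peaks at promoters were not counted. Symbols, neighbours and promoter sequences came from RefSeq (GRCh38.p14).

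In R 4.3.3 with edgeR 4.0.16, filterByExpr kept 23407 of 28775 promoters, which were scaled by TMM and tested with the quasi-likelihood F-test (legacy form, two-sided, no covariate, all 4 libraries). P-values were adjusted by Benjamini-Hochberg over all 23407, and called under 0.05. The fit found infinite prior degrees of freedom, so promoters of like abundance shared 1 dispersion. Accessibility is given as TMM-scaled CPM. Intervals of 95% came from the same fit. Library totals ranged from 3734519 to 10255182, and the shallower overexpression libraries gave less precise values.

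The 42 genes, the longer list and the roles were chosen with earlier results of these data known. Values in every library are given for promoters with an unadjusted p under 0.05, for the 3 highest and 3 lowest log2 fold changes, for the highest and lowest accessibility, and for PARP1, H2AX, CDKN1A, MDM2 and GADD45A. Library values of ATR, BRCA1 and MSH6 are added examples. In the longer list, promoters past the adjusted threshold are named. Alternatives were 4 other scalings (DESeq2 size factors, upper quartile, nuclear totals, loess), other filters (none, a minimum of 10 counts per library, a mean count of 50 or more, no mitochondrial promoters), other tests (edgeR 4 and robust forms, DESeq2 1.42.0, limma-voom of limma 3.58.1), the replicate number as a block, a threshold of 0.1 and leaving out each library. Tables and plots were made with Python 3.11.15, pandas 2.3.3, scipy 1.17.1 and matplotlib 3.10.9.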

Additional observations from a re-analysis of the deposited data

How the results depend on the processing

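The call of XPC was lost (0 of the 42 called, against 1) with upper quartile factors, nuclear totals, the loess fit, a minimum of 10 counts per library, a mean count of 50 or more, limma-voom, DESeq2 (which gave an adjusted p to 6 of the 42) and DESeq2 without independent filtering, an alternative chosen after seeing the data. Leaving out each library gave 0 to 1 called, and XPC was called without control replicate 2 only. Of the longer list, 3 were called in the main fit, 1 with upper quartile factors, nuclear totals, a minimum of 10 counts, a mean count of 50 or more and without mitochondrial promoters, 0 with loess and with both DESeq2 runs, 9 at an adjusted p under 0.1, and 0 to 1 when each library was left out. The median log2 fold change of the 42 was −0.024 with loess and −0.24 to −0.093 when libraries were left out, the former end without overexpression replicate 1. Overexpression above control without overlap (0 of 42) became 2 with upper quartile factors and nuclear totals, 3 with loess, 1 with a minimum of 10 counts and 2 with a mean count of 50 or more. The 95% interval lay within 2-fold at every repair promoter tested, except that it did at 41 of 42 with both DESeq2 runs and at 39 without control replicate 1, 37 without overexpression replicate 1 and 41 without overexpression replicate 2. The cause of these shifts was not tested.

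Over all promoters, 577 were called (305 lower), against 493 (109 lower) with upper quartile factors, 467 (138 lower) with nuclear totals, 368 (180 lower) with a minimum of 10 counts, 218 (104 lower) with a mean count of 50 or more, 719 (314 lower) with limma-voom, 108 (68 lower) with DESeq2 and 50 (19 lower) with loess. Some signs turned when a library was left out: the range was −0.12 to 0.21 for CHEK1, −0.15 to 0.32 for ERCC1, −0.24 to 0.38 for CDKN1A, −0.30 to 0.15 for H2AX and −0.27 to 0.0084 for MDM2, the first 4 turning without overexpression replicate 1 (CDKN1A also without control replicate 2) and MDM2 without overexpression replicate 2. CDKN1A (−0.096), H2AX (0.014) and PARP1 (0.065) turned with loess, and MDM2 with upper quartile factors (0.000163). With the replicate number as a block, 1 of the 42 was called, XPC with an adjusted p of 0.0382, 2 of the longer list and 488 of all promoters; this was not taken as pairing, since deviations of same-numbered libraries correlated by 0.0501 over 14976 promoters and there were only 2 pairs. Counts in overexpression replicate 2, from 14 to 189 over the 42 promoters, limit the precision of these values.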
